A study of Oryza sativa with 46 samples.

Results

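The Saltol interval was described here through 321 probes of 244 loci of rice chromosome 1, out of 42477 probes with 29923 locus names on the array. A probe belonged to the interval when the locus in its name lay between Os01g0295000 and Os01g0359900, and Os01g0307500 and Os01g0348900 were left out by the same rule. The rule itself uses locus numbers and no signal values, though the interval was picked for description with earlier results of these data known. Of the 244 loci, 184 had 1 probe, and the other 60 had 137 probes between them. The probe names marked 230 probes as designed on an mRNA, 61 as COMBINER_EST and 30 as COMBINER, which are predicted genes with and without support from expressed sequence tags. Locus numbers increase along the chromosome, so the order of the loci follows their number. Genome coordinates and probe sequences were not used here.

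Saltol is a quantitative trait locus, a stretch of chromosome where natural variation is linked to a trait. It was mapped in crosses with the landrace Pokkali, and the Pokkali version is known for a low ratio of sodium to potassium in the shoot of young plants under salt. Such a stretch holds many genes, and a linked trait does not tell which of them matter. Breeders have moved the Pokkali version into salt-sensitive varieties by crossing.

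Total RNA of whole rice seedlings, 1 seedling per array, was labelled with Cy3 and hybridised to one-color Agilent rice arrays. The 8 genotypes were Pokkali, a salt-tolerant indica landrace, the moderately tolerant indica varieties PSBRc50 and IR58, the susceptible indica variety BRRIdhan 29, the moderately tolerant japonica cultivar Banikat, the susceptible japonica cultivar Nipponbare, and the susceptible wild species Oryza rufipogon and Oryza latifolia. Seedlings were 16 days old and had been kept for 48 h at 120 mM NaCl, after a step at a lower strength, or at 0 mM. Each genotype and treatment had 3 arrays, apart from IR58 at 0 mM and BRRIdhan 29 at 120 mM with 2 each, which makes 46 arrays. Large seedlings were represented by pieces of root, stem and leaf, and in such material fewer cells of a type and less RNA per cell cannot be told apart. Likewise, a lower signal in a genotype and a weaker match of its transcript to the probe cannot be told apart.

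Each array was set against the genotype means of the remaining arrays. Over all probes, 38 of the 46 arrays were closest to the genotype on their label, with a Pearson correlation of 0.229 to 0.934. The other 8 arrays had an r of −0.0873 to 0.0967 with their labelled genotype and of 0.413 to 0.84 with another one. They were labelled PSBRc50 at 120 mM replicate 3, IR58 at 0 mM replicate 2, BRRIdhan 29 at 0 mM replicate 2, Banikat and Nipponbare at both treatments replicate 3, and Oryza latifolia at 120 mM replicate 2. The interval probes alone singled out the same 8, with an r of −0.151 to 0.145 for the label. None of the 8 was labelled Pokkali. All arrays were kept under their labels, and results are given with and without these 8. The salt differences of Banikat and Nipponbare also stood apart. Across all probes, the correlation with the salt difference of Pokkali was −0.362 in Banikat and −0.228 in Nipponbare, against 0.23 to 0.474 in the other 5 genotypes. In these 2 cultivars it was −0.492 and −0.498 once the 8 arrays were left out. Probes are not independent replicates, so these correlations are descriptions. If the treatment labels of these 2 cultivars were exchanged, their salt differences and their share of the mean over 8 genotypes would turn sign. The labels were kept, and whether they are right was not tested.

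Most of the interval was measurable in Pokkali. A probe counted as well above background where the scanner software flagged its spot so. Per array, a median of 248.5 of the 321 interval probes (219 to 259) passed in Pokkali and of 143.5 (131 to 259) in Oryza latifolia, while the medians of the other 6 genotypes were 238 to 265.5. Only 5 interval probes (1.56%) passed on no array, against 2.91% of all probes, and 92 (28.7%) passed on every array, against 37.5%. The number of arrays limits the precision, and p-values measure the spread between seedlings that carry the same group label. With all 46 arrays this spread takes in the 8 arrays that resembled another genotype. It does not cover the spread among the 7 genotypes that were averaged. Of 11 markers of green tissue and root outside the interval, 10 were detected on all 46 arrays and 1 root marker on 12, and the test called none of them between Pokkali and the other genotypes. The log2 of the summed signal of the 6 green markers was 19.6 to 20.2 in Pokkali and 18.6 to 20.4 in the other genotypes, and that of the 5 root markers was 13.3 to 16.1 in Pokkali and 13.8 to 16.8 in the others.

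Levels in Pokkali were compared with the mean of the other 7 genotypes, to see which genes of the interval differ in the landrace from which the tolerance allele was mapped. All differences below are in log2 signal, where 1 stands for a factor of 2, with the standard error of the limma fit on the 16 group means and a Benjamini-Hochberg adjusted p that takes all 42477 probes together, called below 0.05. In the interval, 26 probes of 21 loci differed, 6 loci higher and 15 lower in Pokkali. This is 8.1% of the interval probes, against 6.05% of all probes called in this comparison. Higher calls were 6 of the 321 probes (2.8% of all probes) and lower calls 20 (3.25% of all probes). The median difference was −0.06 over the interval and 0.03 over all probes, so the interval as a whole was not shifted by much in Pokkali. The calls were spread along the interval, with 5, 10, 6 and 5 called probes in successive stretches of 61 loci. Of the 26 called probes, 24 differed in the same direction from PSBRc50 on each of the 3 slides that carried both genotypes, and 17 differed in the same direction from each of the 7 genotypes. The same arrays entered the difference by which these probes were called, so part of this agreement was built in. It also counts differences as small as −0.018 and −0.008, for a probe of Os01g0341200. Pokkali shared no slide with another genotype than PSBRc50. With the slide as a random block, 22 probes were called. Leaving out all arrays numbered replicate 1 left 3 calls, and leaving out Pokkali replicate 1, 2 or 3 alone left 6, 7 or 9. The shares of all probes called in these refits are not given here, so the counts describe the refits rather than the interval.

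**Figure D1:**
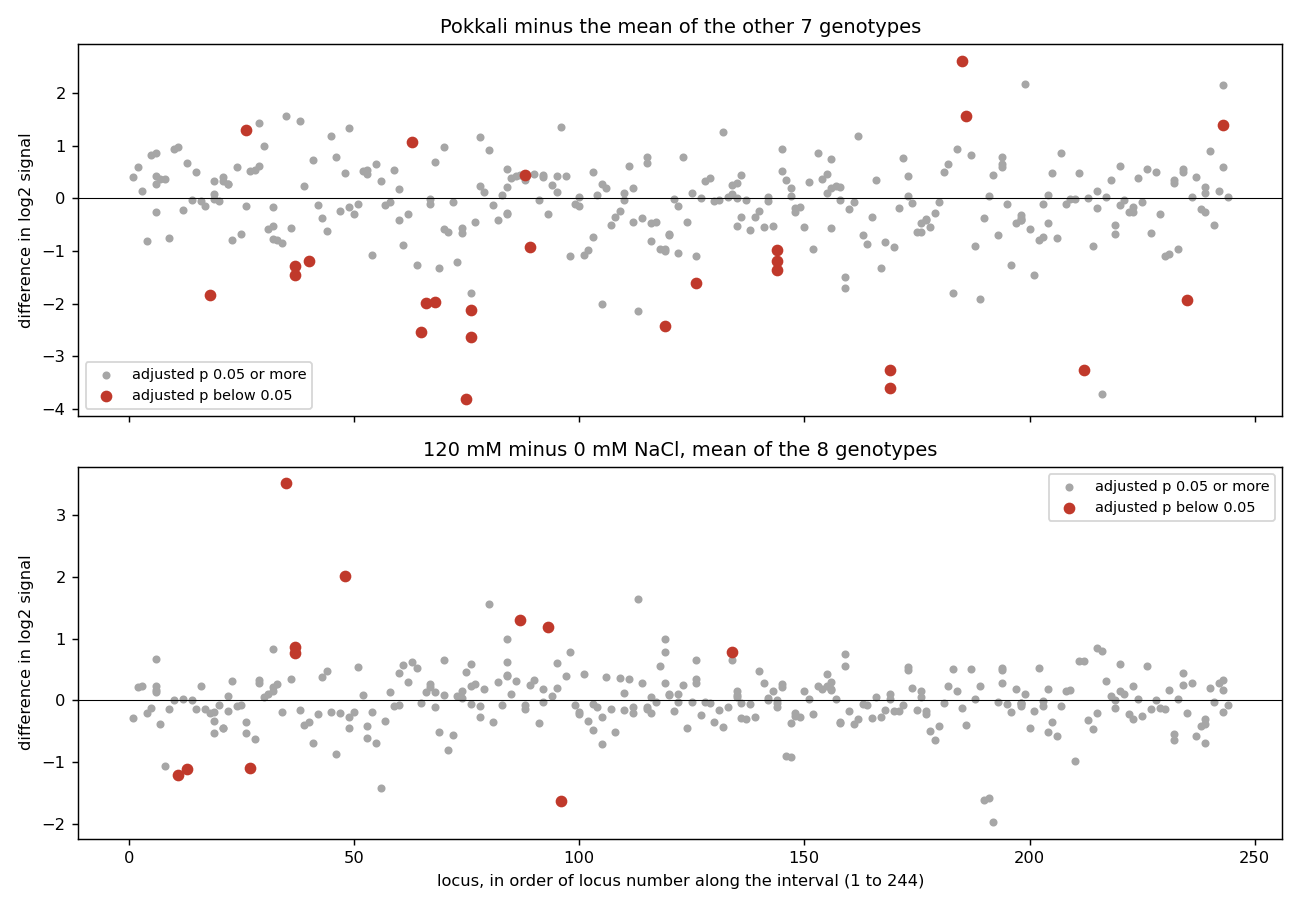
Difference in log2 signal of each of the 321 interval probes, with the 244 loci in order of locus number on the x axis. The upper panel shows Pokkali minus the mean of the other 7 genotypes and the lower panel 120 mM minus 0 mM NaCl over the 8 genotypes. Red points, 26 above and 11 below, passed an adjusted p of 0.05, and grey points did not.

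Among described loci, the list of sugar, nitrogen and chloroplast metabolism, which also took in a sulfotransferase, had 4 of 9 probes lower in Pokkali (3.25% of all probes) and 0 higher, 3 of them probes of 1 locus. Os01g0332100, a neutral invertase, which splits sucrose into glucose and fructose, was lower with all 3 of its probes, by −1.35 ± 0.29 (adjusted p = 0.00273), −0.98 ± 0.26 (adjusted p = 0.0155) and −1.19 ± 0.35 (adjusted p = 0.0364). The brightest of them had 13.35, 12.07 and 13.24 in Pokkali at 120 mM and 13.13, 13.39 and 12.82 at 0 mM, against a lowest value of 12.49, a median of 14.26 and a highest of 16.39 on the 40 arrays of the other genotypes. Only 3 of these 40 lay below the highest Pokkali array. On the shared slides it differed from PSBRc50 by −0.22, −1.25 and −0.77. Against the 3 indica varieties alone, the brightest probe missed the threshold (adjusted p = 0.0751).

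Os01g0311600, of the sulfotransferase family, whose members pass sulfate groups to small molecules or peptides, was lower in Pokkali by −1.97 ± 0.34 with its brighter probe (adjusted p = 1.97e-04). This probe had 3.5, 4.5 and 3.98 in Pokkali at 120 mM and 4.06, 4.55 and 4.68 at 0 mM, against 3.75 to 7.80 (median 6.48) in the others. Pokkali was below each of the 7 genotypes on average, and Banikat and Oryza latifolia came closest with means of 4.98 and 5.01. The dimmer probe of Os01g0311600 went the other way, at 0.70 ± 0.44 (adjusted p = 0.373), so the probes of this locus disagree. In the same list, Os01g0311700, with a domain of invertase and pectin methylesterase inhibitors, stood at −1.32 (adjusted p = 0.0508, and 0.00132 without the 8 arrays). Os01g0303000, similar to the small chloroplast protein CP12 that regulates the Calvin cycle, had 3 probes at −0.17, −0.76 and −0.53, none of them called. The list was put together from words of the gene descriptions, which only 43 of the 244 loci had, and these came from probe lists that the study had selected on these arrays.

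Os01g0353400, for which no description was at hand, was lower in Pokkali as well. It had 6.50, 7.04 and 5.47 in Pokkali at 120 mM and 6.30, 6.24 and 5.97 at 0 mM, against 4.66 to 12.71 (median 9.96) in the other genotypes. The difference was −3.25 ± 0.57 (adjusted p = 2.26e-04), and on the slides shared with PSBRc50 it was −4.13, −3.03 and −3.12. Only 4 of the 40 other arrays lay below the highest Pokkali array. BRRIdhan 29, with a mean of 6.19, had the same low level as Pokkali (6.25), and the remaining 6 genotypes averaged 9.66 to 11.06. The array of IR58 at 0 mM that resembled BRRIdhan 29 was low (5.44), and the BRRIdhan 29 array that resembled IR58 was high (8.78). This locus kept its call under every alternative tried for it.

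Os01g0316900, singled out after its values were seen, had a small difference with little spread. It read 11.09, 10.74 and 10.60 in Pokkali at 120 mM and 10.67, 10.56 and 10.56 at 0 mM, against 10.98 to 12.54 (median 11.57) elsewhere. The difference from the mean of the others was only −0.93 ± 0.17 (adjusted p = 3.03e-04), and 5 of the 40 other arrays lay below the highest Pokkali array. Pokkali averaged lower than each of the 7 genotypes, and 6 of these single comparisons were called. The neighbouring locus Os01g0316800 went the opposite way. It was 0.44 ± 0.13 higher in Pokkali (adjusted p = 0.0426), with 13.17, 13.48 and 13.50 at 120 mM and 13.21, 13.28 and 13.39 at 0 mM against 12.15 to 13.67 (median 12.89) in the others. Its second probe stood at 0.35 (adjusted p = 0.165), and with 75th percentile scaling the first was not called either (0.30, adjusted p = 0.264).

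Os01g0314000 was lower in Pokkali with 2 of its 3 probes, at −2.62 ± 0.53 (adjusted p = 0.00122) and −2.12 ± 0.57 (adjusted p = 0.0198), and its brightest probe stood at −1.79 ± 0.70 (adjusted p = 0.134). All 3 were called without the 8 arrays, where 25.2% of all probes were. The probe with the larger difference had 2.97, 2.25 and 1.24 in Pokkali at 120 mM and 2.05, 1.36 and 1.35 at 0 mM, where only 1 of the 6 arrays was well above background, against 1.35 to 6.63 (median 4.96) and 29 of 40 in the others. Oryza latifolia was as low (mean 2.30) as Pokkali (1.87). Nearby Os01g0311400 was lower by −1.98 ± 0.61 (adjusted p = 0.0479) with Pokkali arrays between 4.93 and 6.81 and the others between 1.70 and 11.15 (median 8.09), but the call was lost with the slide as a block (adjusted p = 0.0531) and without Banikat and Nipponbare (adjusted p = 0.124). Os01g0303800, which also rose under salt, was lower with both probes (−1.28 ± 0.30, adjusted p = 0.00535, and −1.45 ± 0.31, adjusted p = 0.00238). Os01g0304300 (−1.20, adjusted p = 0.0119) and Os01g0328300, with the F-box domain that brings proteins to ubiquitin ligases (−1.61, adjusted p = 0.0475), were also lower. For Os01g0328300 the call was lost with the slide as a block (adjusted p = 0.0546), and its other 2 probes, dark in Pokkali, were not called. Without the 8 arrays all 3 of its probes were called.

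Os01g0327100 showed how much of a mean over 7 genotypes can rest on a few of them. Its called probe had 7.48, 6.94 and 5.88 in Pokkali at 120 mM and 6.61, 5.24 and 5.02 at 0 mM, against 5.69 to 13.18 (median 7.69) in the others, a difference of −2.41 ± 0.70 (adjusted p = 0.0325). Oryza latifolia averaged 11.77 and Banikat 10.43, while the other 5 genotypes averaged 7.10 to 8.01. Without Oryza latifolia the adjusted p was 0.0831, and against the 3 indica varieties alone it was 0.554. Both other probes of this locus, at −0.96 and −1.01, were not called with all arrays. Without the 8 arrays all 3 of its probes were called, where 25.2% of all probes were.

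**Figure D2:**
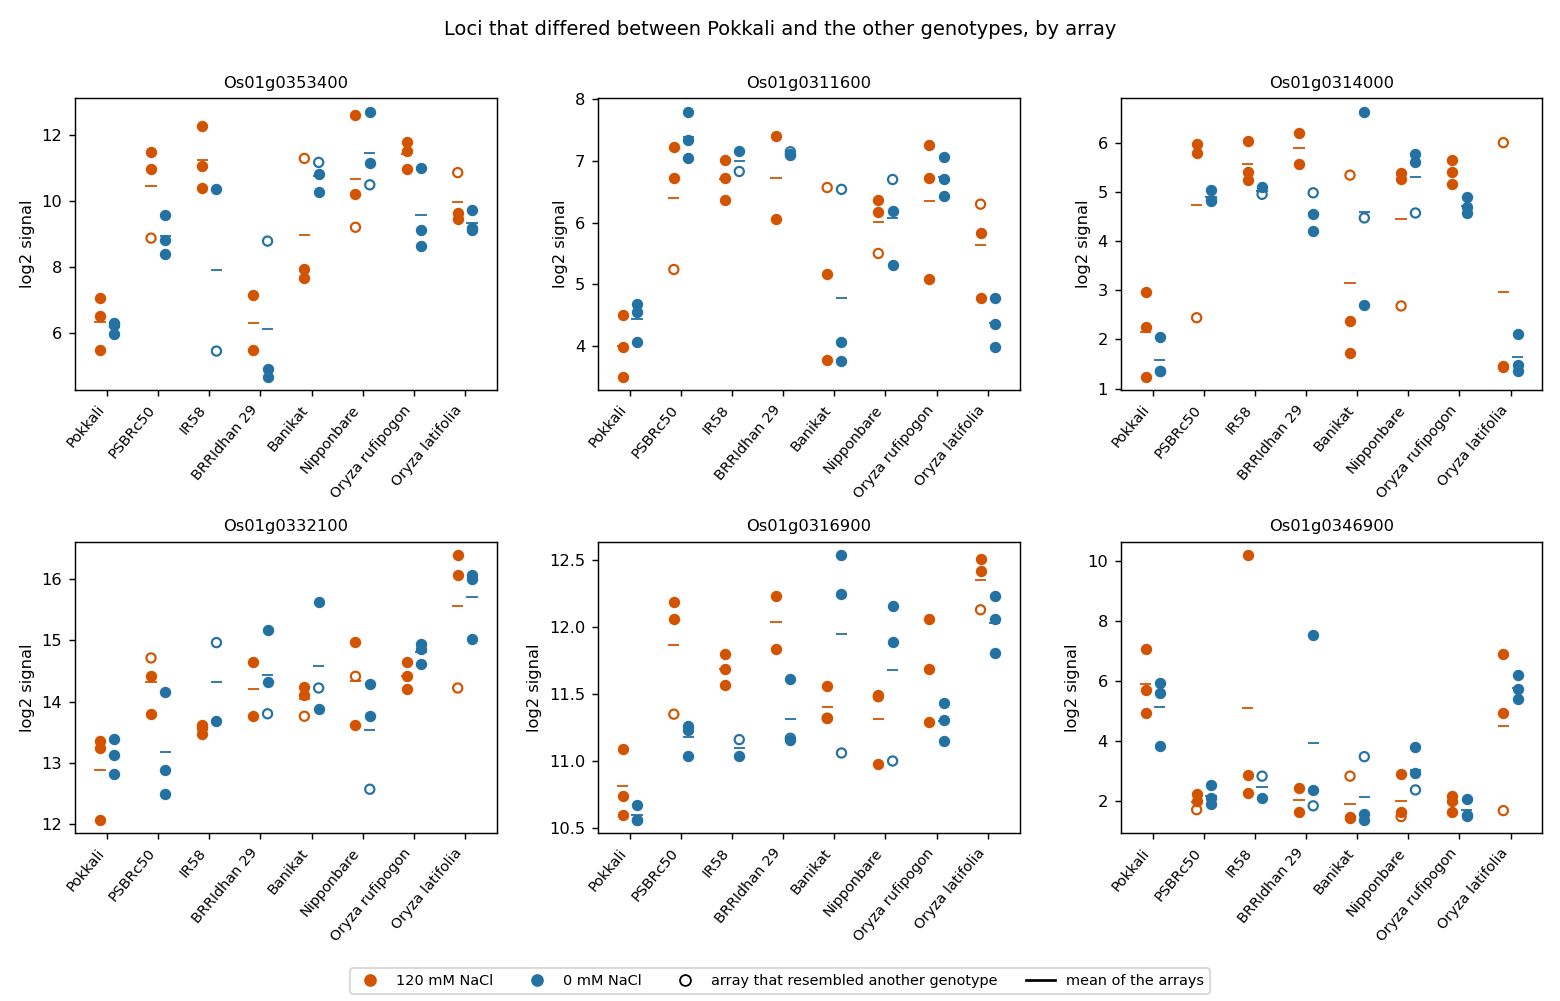
Log2 signal of 6 loci on each array, by genotype on the x axis, with 120 mM NaCl (orange) left of 0 mM (blue) and a bar at the mean of the arrays of each group. Open circles are the 8 arrays that resembled another genotype. Pokkali lies low for Os01g0353400, Os01g0311600, Os01g0314000, Os01g0332100 and Os01g0316900 and high for Os01g0346900, and BRRIdhan 29 is as low as Pokkali for Os01g0353400.

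Of the loci higher in Pokkali, Os01g0346900 had the largest difference. Its description names a histone-fold domain, the fold by which histones and related proteins pair. It had 4.95, 7.06 and 5.70 at 120 mM and 5.61, 3.83 and 5.92 at 0 mM in Pokkali, against 1.37 to 10.21 (median 2.20) in the others, a difference of 2.61 ± 0.71 (adjusted p = 0.0227). Detection above background held for 5 of 6 Pokkali arrays and 3 of 40 others. Oryza latifolia reached a mean of 5.14, and single arrays of IR58 (10.21) and BRRIdhan 29 (7.55) were higher than every Pokkali array. The next locus in order, Os01g0347000, was also higher, with 4.46 to 5.12 on the Pokkali arrays and 1.45 to 6.89 (median 3.18) on the others (1.55 ± 0.42, adjusted p = 0.0222). Both loci are dim, and after normexp background correction with its added offset the differences were 0.56 and 0.26, not called (adjusted p = 0.277 and 0.250). Neither was called against the 3 indica varieties alone (adjusted p = 0.0548 and 0.086).

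Os01g0301700, with a tetratricopeptide repeat-like domain that serves contacts between proteins, ranked highest in Pokkali of all genotypes, with 4.33, 4.36 and 4.00 at 120 mM and 5.01, 5.45 and 4.61 at 0 mM against 1.22 to 5.33 (median 3.54), a difference of 1.30 ± 0.32 (adjusted p = 0.00895). Against the 3 indica varieties alone the difference of Os01g0301700 was 0.92 and not called (adjusted p = 0.17), and Oryza latifolia averaged only 1.60. The second probe of this locus, well above background on 1 array only, stood at −0.14. Os01g0310800 was 1.08 ± 0.32 above the mean of the others (adjusted p = 0.0387), at 5.38 to 6.67 in Pokkali and 3.31 to 6.70 (median 5.03) in the others. Pokkali averaged higher than each of the 7 genotypes, but only 1 of these single comparisons was called. No description was at hand for Os01g0310800 or Os01g0347000.

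Several interval loci were near background in some genotypes and bright in others, on nearly all arrays of each. Os01g0341200 was well above background on none of the 6 Pokkali arrays, where its brighter probe read 1.64 to 1.94. It was as low in PSBRc50, Nipponbare and Oryza rufipogon, and read 5.82 to 9.13 in IR58, BRRIdhan 29, Banikat and Oryza latifolia, leaving the arrays that resembled another genotype aside. Among those, the PSBRc50 array that resembled Banikat read 8.59, the Nipponbare arrays that resembled IR58 and Banikat read 5.71 and 8.92, the Banikat arrays that resembled Nipponbare read 2.76 and 2.22, and the Oryza latifolia array that resembled PSBRc50 read 1.66. Each of these 6 arrays thus had the state of the genotype it resembled. With all arrays, Pokkali was lower by −3.25 ± 0.96 (adjusted p = 0.0371) and, with the other probe, by −3.61 ± 1.10 (adjusted p = 0.0441). The differences without the 8 arrays were −3.29 (adjusted p = 3.54e-14) and −3.68 (adjusted p = 1.56e-13). Since Pokkali was not above background, the fold is a bound, at least 5.48-fold and 5.18-fold higher in the mean of the other genotypes, set against the lowest signal among detected probes. Without Oryza latifolia neither probe was called (adjusted p = 0.0628 and 0.0726), and with the slide as a block the second was not (adjusted p = 0.0514).

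Os01g0313600, for which the study's list gave no hit, had the largest difference of the interval, −3.81 ± 1.10 (adjusted p = 0.032). Pokkali read 1.73, 1.41 and 8.40 at 120 mM and 2.09, 1.18 and 1.18 at 0 mM, so 1 Pokkali seedling under salt stood at the level of the bright genotypes. The probe averaged 8.30 to 10.07 in PSBRc50, IR58, BRRIdhan 29 and Oryza rufipogon, and 1.95 to 3.55 in Banikat, Nipponbare and Oryza latifolia. Against the 3 indica varieties alone the difference was −6.76 (adjusted p = 2.91e-04). Os01g0359400 was the reverse case. Its brightest probe read 5.81 to 6.81 in Pokkali, and averaged 5.37 to 7.12 in 5 genotypes and 1.97 in Oryza latifolia. In PSBRc50 it read 1.33 to 1.39 on 5 arrays and 5.61 on the array that resembled Banikat. The difference of 1.39 ± 0.42 (adjusted p = 0.0401) was not called without Oryza latifolia (adjusted p = 0.241). This value rests on 1 array of IR58 at 0 mM, since the spot was an outlier on the other, and the probe could not be fitted without the 8 arrays. A second probe of Os01g0359400 (2.15 ± 0.70, adjusted p = 0.0608) was also near background on 4 IR58 arrays, at 1.45 to 1.82, and read 5.45 on the IR58 array that resembled BRRIdhan 29, while the BRRIdhan 29 array that resembled IR58 read 1.46.

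Os01g0311300, Os01g0357600 and Os01g0300000 were also well above background on none of the 6 Pokkali arrays, and on 21, 17 and 21 of the 40 others. Their differences were −2.54 ± 0.72 (adjusted p = 0.0284), −1.92 ± 0.49 (adjusted p = 0.012) and −1.83 ± 0.57 (adjusted p = 0.0486), with bounds of at least 4.50-fold, 2.20-fold and 1.60-fold higher in the mean of the other genotypes. The call of Os01g0311300 was lost without both wild species (adjusted p = 0.0718) and after normexp correction (−0.61, adjusted p = 0.15). For Os01g0300000 the call was lost with the slide as a block (adjusted p = 0.0561). Os01g0354200, singled out after its values were seen, was just outside the calls in spite of a difference of −3.71 ± 1.29 (adjusted p = 0.0839). It averaged 1.68 in Pokkali, 2.65 in PSBRc50 and 7.96 in Oryza rufipogon, and was called without the 8 arrays (−3.78, adjusted p = 6.21e-06).

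**Figure D3:**
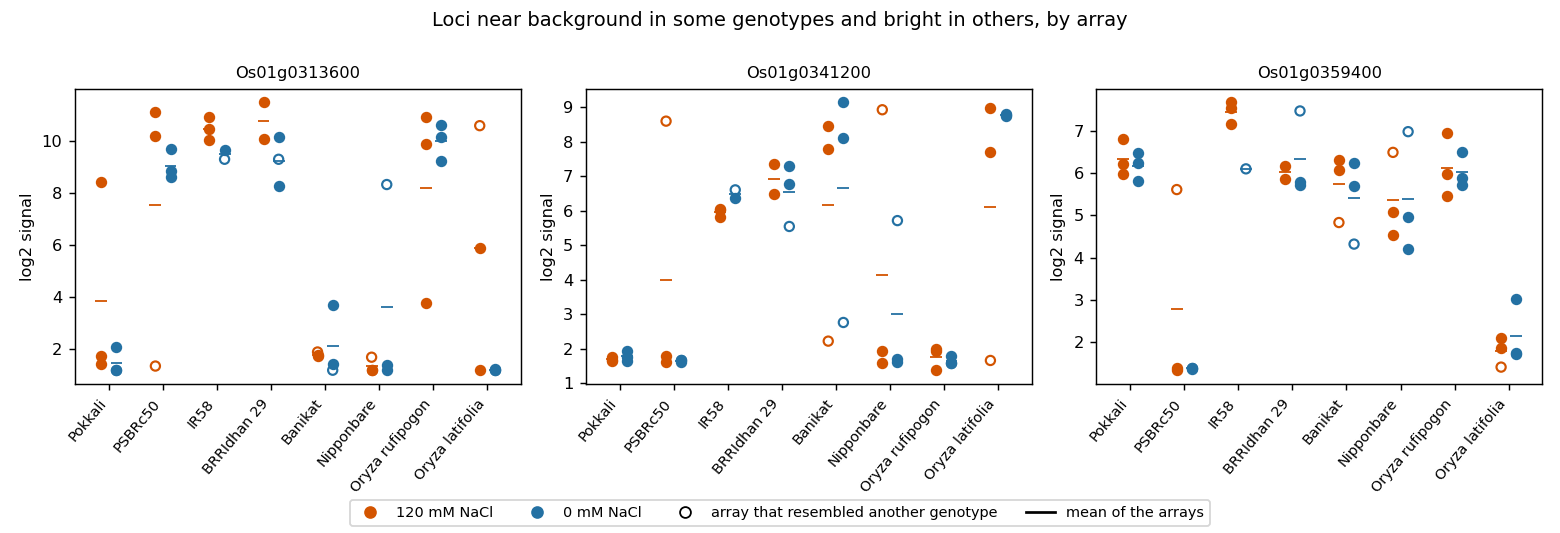
Log2 signal of the brightest probe of Os01g0313600, Os01g0341200 and Os01g0359400 on each array, by genotype, with 120 mM NaCl (orange) left of 0 mM (blue), a bar at each group's mean and open circles for the 8 arrays that resembled another genotype. Pokkali is near background for Os01g0341200 on all 6 arrays and for Os01g0313600 on 5, while PSBRc50 and Oryza latifolia are near background for Os01g0359400.

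Within single treatments fewer loci passed the test. At 0 mM, 4 interval probes were called, against 1.57% of all probes, and all were lower in Pokkali (0.968% of all probes were lower): Os01g0353400 (−2.98, adjusted p = 0.0498), Os01g0314000 (−2.81, adjusted p = 0.0437), Os01g0303800 (−1.84, adjusted p = 0.0182) and Os01g0316900 (−0.91, adjusted p = 0.0375). At 120 mM, 3 were called, against 1.71% of all probes, again all lower (1.13% of all probes): Os01g0353400 (−3.52, adjusted p = 0.0122), Os01g0311600 (−2.15, adjusted p = 0.0101) and Os01g0316900 (−0.95, adjusted p = 0.0245). Os01g0353400 and Os01g0316900 were thus called at both treatments, but at 0 mM neither was called without Oryza latifolia (adjusted p = 0.0732 and 0.0688), nor was Os01g0353400 with the slide as a block (adjusted p = 0.0525). Leaving out any 1 of the Pokkali replicates left 0 calls at 0 mM, and leaving out replicate 1 or 2 left 1 at 120 mM.

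Without the 8 arrays, 99 of the 318 interval probes that could be fitted were called, in 83 loci, 39 higher and 60 lower in Pokkali. This is 31.1% of them, against 25.2% of all probes (14.1% higher and 11% lower). Of the 26 probes called with all arrays, 25 were called again and 1 could not be fitted, while 74 were called only in this fit. The 8 arrays were picked by their signals in these same data, and both fits share all other arrays. The second fit thus adds no independent support. The differences kept their sign in 301 of the 318 probes. At 0 mM 39 probes were called in this fit (11.4% of all probes) and at 120 mM 50 (13.3% of all probes).

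**Figure D4:**
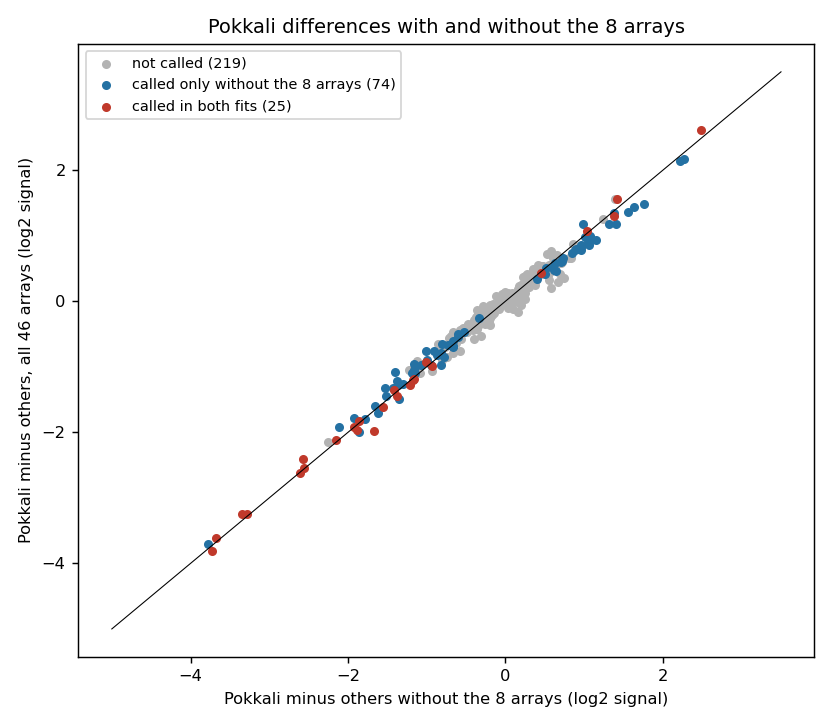
Pokkali minus the mean of the other genotypes for the 318 interval probes that could be fitted both ways, without the 8 arrays that resembled another genotype (x axis) and with all 46 arrays (y axis), in log2 signal. The points lie along the line of equal values, with 25 called in both fits (red), 74 only without the 8 arrays (blue) and 219 not called (grey).

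Set against single genotypes, Pokkali differed in 16 interval probes from PSBRc50 (3.59% of all probes), in 11 from IR58 (2.68%), in 22 from BRRIdhan 29 (3.7%), in 31 from Banikat (8.28%), in 5 from Nipponbare (2.54%), in 20 from Oryza rufipogon (6.27%) and in 217 from Oryza latifolia (66.5%). These comparisons share the Pokkali arrays. Oryza latifolia is the species with the fewest detected probes, and without it 30 interval probes were called for Pokkali against the mean. The share of all probes called in that fit is not given here, so this count describes the fit rather than the interval.

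Salt responses of the interval were compared as 120 mM minus 0 mM over the mean of the 8 genotypes. Of the 321 probes, 11 of 10 loci changed, 7 upward and 4 downward. This is 3.43%, against 1.94% of all probes (1.23% upward and 0.713% downward). The median salt difference was −0.02 in the interval and −0.01 over all probes. Most of the called loci lay in the first 61 loci of the interval, which held 7 of the 11 calls, and the last 61 loci held 0. Without Oryza latifolia 2 were called, Os01g0301900 and Os01g0306400, and without both wild species 0. The differences stayed of similar size without Oryza latifolia (3.31 for Os01g0303300 and −1.19 for Os01g0297700). Those without both wild species are not given here. The log2 of the summed root markers was 13.3 to 16.8 at 120 mM and 13.8 to 16.7 at 0 mM, that of the green markers 19.3 to 20.4 at 120 mM and 18.6 to 20.4 at 0 mM, and all 5 root markers had a negative salt difference, −0.27 to −1.61 over the 8 genotypes (lowest adjusted p = 0.0665) and −0.72 to −2.60 in Pokkali (adjusted p = 1 each). Their part in the salt differences of the interval was not tested. The 11 salt calls of the interval went to 0 without the arrays numbered replicate 1 or without those numbered replicate 2. They went to 6 or 5 without Pokkali replicate 1 or 2. For these refits without wild species or replicates, the shares of all probes called are not given. Their counts thus describe the refits rather than the interval. Leaving out the 8 arrays also gave 11 calls, 9 of them shared, against 2.39% of all probes.

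The largest rise was that of Os01g0303300, without a description here. It had 9.67, 9.37 and 7.38 in Pokkali at 120 mM, against 8.35, 4.86 and 5.61 at 0 mM, and over all genotypes 1.35 to 11.97 (median 9.37) at 120 mM, against 1.34 to 10.01 (median 4.51) at 0 mM. The mean difference was 3.52 ± 0.80 (adjusted p = 0.0174), and 16 of 22 pairs of arrays of a genotype on the same slide were higher at 120 mM. By genotype it was 6.90 in IR58, 6.93 in BRRIdhan 29 and 6.63 in Oryza rufipogon, 2.54 in Pokkali, −0.01 in Banikat and −2.68 in Nipponbare. The treatments therefore overlap widely when genotypes are pooled.

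Os01g0306400 rose by 2.01 ± 0.45 (adjusted p = 0.016). Of the 23 arrays of each treatment, 18 at 120 mM and 7 at 0 mM detected it above background. Pokkali had 6.64, 5.55 and 4.94 at 120 mM, against 2.38, 4.89 and 5.71 at 0 mM, which overlap, while Oryza rufipogon had 3.71 to 8.36 at 120 mM, against 1.42 to 4.00 at 0 mM. Os01g0316600 rose by 1.30 ± 0.35 (adjusted p = 0.0441), and all 3 Pokkali arrays at 120 mM (11.28, 11.77 and 10.52) were above those at 0 mM (8.93, 8.63 and 9.57). Os01g0318400 rose by 1.19 ± 0.30 (adjusted p = 0.03), with 9.99, 11.06 and 8.79 in Pokkali at 120 mM, against 5.54, 7.11 and 8.60 at 0 mM.

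Os01g0303800 rose with both probes, by 0.86 ± 0.20 (adjusted p = 0.0205) and 0.76 ± 0.21 (adjusted p = 0.0494). It was bright everywhere, with 11.49, 12.83 and 11.12 in Pokkali at 120 mM, against 9.97, 10.80 and 10.86 at 0 mM for the brighter probe. With all arrays it was thus the only locus of the interval called both for salt and for Pokkali, where it was lower. Without the 8 arrays, Os01g0319200 and Os01g0297700 were also called for both, and both were higher in Pokkali. They stood at 1.56 and 1.07 for Pokkali (adjusted p = 1.34e-04 and 0.0089) and at −1.61 and −0.93 for salt (adjusted p = 6.87e-05 and 0.0229). Os01g0329400 belongs to the mitochondrial carrier family, which moves metabolites across the inner mitochondrial membrane. It rose by 0.78 ± 0.18 with its dimmer probe (adjusted p = 0.0204) and stood at 0.65 with the brighter (adjusted p = 0.098). In Pokkali the called probe had 11.01, 10.63 and 9.81 at 120 mM, against 9.01, 9.14 and 9.46 at 0 mM. Its adjusted p was 0.061 without the 8 arrays.

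Of the 4 loci that fell, Os01g0319200 fell most, by −1.63 ± 0.40 (adjusted p = 0.0259). It had 6.41, 6.26 and 6.36 in Pokkali at 120 mM, against 7.73, 7.51 and 7.37 at 0 mM, with no overlap. Banikat stood at 0.23, and in Oryza latifolia only 1 of 3 arrays at 120 mM and 0 of 3 at 0 mM detected it above background. Os01g0297700 fell by −1.20 ± 0.32 (adjusted p = 0.0404) and Os01g0299100 by −1.11 ± 0.29 (adjusted p = 0.0399), and the difference of Os01g0299100 was negative in each of the 8 genotypes, but its adjusted p was 0.145 without the 8 arrays. With 75th percentile scaling Os01g0319200 (−1.19, adjusted p = 0.0769) and Os01g0299100 (−0.78, adjusted p = 0.147) were not called.

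Os01g0301900 fell by −1.10 ± 0.24 over the genotypes (adjusted p = 0.0126), and hardly moved in Pokkali. Pokkali had 9.77, 9.69 and 9.86 at 120 mM, against 9.90, 9.55 and 10.07 at 0 mM, a difference of −0.06 ± 0.64. Without the 8 arrays the salt difference was −2.21 in PSBRc50 (adjusted p = 0.00578), −3.10 in BRRIdhan 29 (adjusted p = 0.00233) and −2.75 in Oryza rufipogon (adjusted p = 2.85e-04), but 2.14 in Banikat (adjusted p = 0.0082) and 2.54 in Nipponbare (adjusted p = 0.00758). The difference between the salt effect of Pokkali and the mean of the others was 1.18 ± 0.69 (adjusted p = 1), so Pokkali was not shown to differ from that mean.

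**Figure D5:**
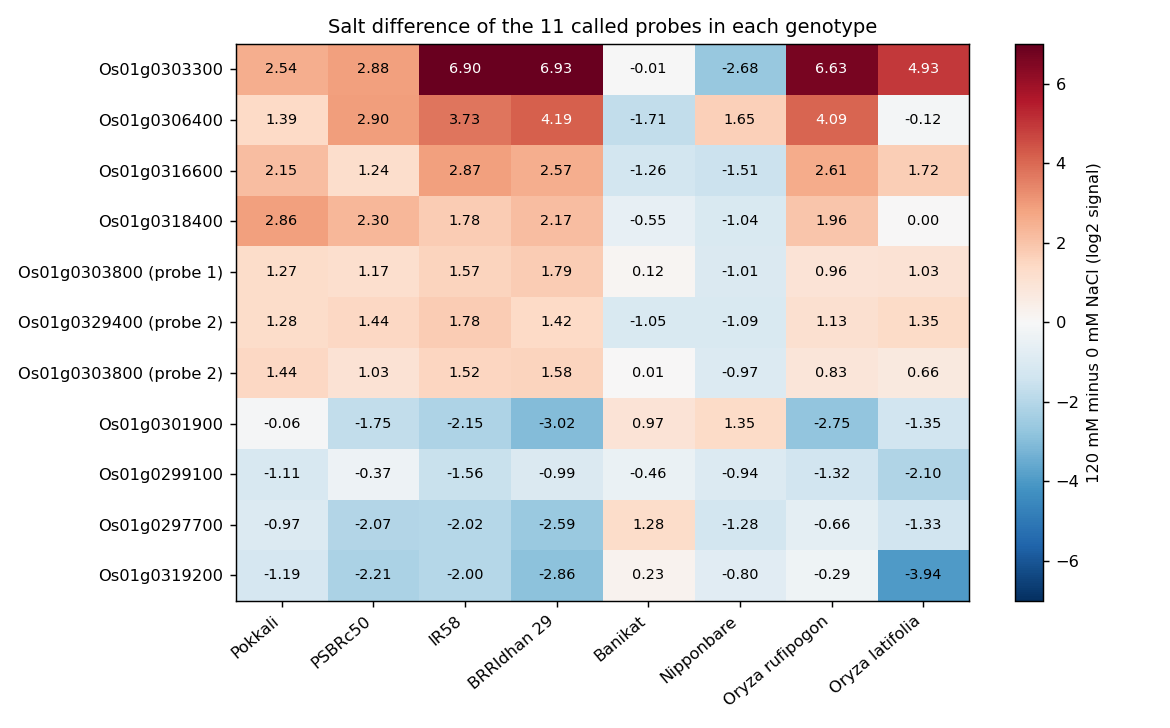
Salt difference, 120 mM minus 0 mM NaCl in log2 signal, of the 11 called interval probes (rows) in each of the 8 genotypes (columns), with the value printed in each cell and on the color scale. Os01g0303300 reaches 6.93 in BRRIdhan 29, and Banikat and Nipponbare have the opposite sign to the mean in most rows, such as −1.05 and −1.09 for Os01g0329400.

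Within single genotypes, salt calls appeared mostly once the 8 arrays were left out. With all 46 arrays, 11 interval probes were called in Oryza latifolia (4% of all probes) and 0 in each other genotype. Without the 8 arrays, 21 interval probes were called in PSBRc50 (4.66% of all probes), 1 in IR58 (0.561%), 6 in BRRIdhan 29 (1.28%), 26 in Banikat (8.02%), 1 in Nipponbare (1.07%), 6 in Oryza rufipogon (2.23%) and 13 in Oryza latifolia (3.48%). Compared directly with the salt effect of Pokkali, the salt effect differed in 39 interval probes in Banikat (9.23% of all probes), in 6 in Nipponbare (3.18%) and in 4 in Oryza latifolia (0.991%). With all 46 arrays these direct comparisons with Pokkali called 0 interval probes, and at most 0.341% of all probes, in Oryza latifolia.

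Since the mean over 8 genotypes mixes opposite differences, the salt comparison was repeated without Banikat and Nipponbare, a choice made after the salt differences were seen. It called 62 interval probes of 52 loci, 25 upward and 37 downward, which is 19.3% against 16.4% of all probes, and these included all 11 of the first fit. With the 8 arrays also left out, 87 probes were called (27.4%, against 22.9% of all probes). Because the cultivars were left out for their salt differences, these counts add no independent support. In this fit the papain family peptidase Os01g0348000, a cysteine protease, reached −2.31 (adjusted p = 0.00162), against −1.97 (adjusted p = 0.0517) with all genotypes.

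In Pokkali alone, no interval probe was called for salt by limma, where 1 of all probes was (0.00235%). An unadjusted p below 0.05 was found for 12 interval probes (3.74%), against 2.43% of all probes. Without the 8 arrays the interval count stayed at 0, while 0.254% of all probes were called. In that fit 23 interval probes (7.17%) were below an unadjusted 0.05, against 6.54% of all probes. The largest differences were 2.86 for Os01g0318400, 2.70 for Os01g0314800 and 2.54 for Os01g0303300 upward, and −1.73 for Os01g0347600, −1.45 for Os01g0352100 and −1.35 for Os01g0343800 downward, each with an adjusted p of 1. Os01g0314800 was among the brightest probes of the interval, with 17.74, 17.35 and 15.61 in Pokkali at 120 mM, against 13.41, 12.92 and 16.29 at 0 mM, which overlap through 1 array of each treatment. Os01g0352100 carries a domain of iron- and oxoglutarate-dependent oxygenases.

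The salt effect of Pokkali minus the mean salt effect of the other genotypes gave 0 calls in the interval and 0 among all probes. An unadjusted p below 0.05 was found for 5 interval probes (1.56%), against 1.17% of all probes. The largest values were 2.85 for Os01g0348000, 1.91 for Os01g0318400 and 1.34 for Os01g0308600, and −1.55 for Os01g0324500, −1.32 for Os01g0310900 and −1.25 for a probe of Os01g0303000. For Os01g0348000, Pokkali had 8.40, 8.53 and 8.69 at 120 mM, against 8.09, 6.82 and 9.13 at 0 mM, while BRRIdhan 29 averaged 5.90 at 120 mM, against 9.66 at 0 mM. The standard errors of these 3 rises were 1.61, 0.87 and 1.13.

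The other gene groups of the interval, fixed from the gene descriptions, held few probes. Of 7 probes of 4 loci for proteolysis and ubiquitin, 1, the F-box locus above, was lower in Pokkali (3.25% of all probes). Without the 8 arrays 3 of these 7 were lower (11% of all probes). Of 4 probes of 3 transport loci, 1, the mitochondrial carrier, rose under salt (1.23% of all probes). The 3 peroxidase loci had 6 probes and none was called. Os01g0327400, bright with 2 probes, stood at −0.69 and −0.68, and Os01g0326000, a class III peroxidase of the kind that uses hydrogen peroxide in the cell wall, at 0.66 and 0.79. Without the 8 arrays, Os01g0326000 was higher (adjusted p = 0.00116 and 0.00172) and Os01g0327400 lower in Pokkali (adjusted p = 0.0159 and 0.0178), so the list had 2 probes in each direction. Over all probes, 14.1% were higher and 11% lower in that fit. The cell wall list had 3 loci and 6 probes, among them the endoglucanase Os01g0312800 at −0.08 for Pokkali and −0.56 for salt, and the 4 probes of Os01g0315800, of the epimerase family that includes enzymes of nucleotide sugars, at 0.39 to 0.99 for salt. None was called.

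Among transport loci, Os01g0356000, with a domain of ATP-driven ABC transporters and named in the study, stood at 0.40 for Pokkali (adjusted p = 0.407) and 0.03 for salt (adjusted p = 0.962). Pokkali had 13.21, 12.57 and 12.05 at 120 mM, against 12.45, 12.11 and 11.96 at 0 mM. Os01g0323000, a protein kinase-like locus that the study names too, stood at 0.27 for Pokkali and −0.70 for salt with its brighter probe (adjusted p = 0.69 and 0.102). Its dimmer probe stood at −2.0 for Pokkali (adjusted p = 0.0829, and 9.86e-04 without the 8 arrays). The study listed Os01g0323000 for a positive relation of signal to the shoot ratio of sodium to potassium across genotypes under salt. The study's lists, from which Os01g0356000 was also named, relate signal to traits. That is another measure than a salt or a Pokkali difference, so these values do not test the study's listing. The only transcription factor of the list, the Myb locus Os01g0305900, stood at 1.18 for Pokkali (adjusted p = 0.431, and 0.0142 without the 8 arrays).

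Probes of the same locus did not always agree. Among the 60 loci with several probes, the Pokkali difference had the same sign in all probes of 38 loci and the salt difference in 46. Of 10 such loci with a call for Pokkali, Os01g0303800, Os01g0332100 and Os01g0341200 had all probes called, and 8 had the same sign throughout. With 1 probe per locus, the brightest, 19 of the 244 loci were called for Pokkali and 9 for salt. At the ends of the interval, the first locus inside, Os01g0295300, stood at 0.41 for Pokkali and Os01g0294700 just outside at 0.34, while the last inside, Os01g0359800, stood at 0.02 and Os01g0360000 outside at −0.17. None of these was called.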

How the data were processed

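For each array the authors deposited the scanner output of Agilent Feature Extraction (version 10.7.3.1 by the file headers), of which the background-subtracted processed signal intensity of each spot was used. A second deposited table holds log2 values that the authors had quantile-normalized, and it served as an alternative. Here, processed signals were taken to log2 and quantile-normalized over the 43734 spots that are not controls. Outlier spots (19 to 563 per array) were dropped, which left 1098 probe values missing, and repeated spots were averaged to 42477 probes. A probe was well above background where at least 0.5 of its spots were flagged so. limma 3.58.1 (R 4.3.3; figures with Python 3.11.15) was fitted with lmFit and eBayes to all 46 arrays with 16 group means, Benjamini-Hochberg over all probes, and checked on simulated data. Groups came from sample titles. The rule named the loci with the largest called differences that were detected (at most 8 each way for Pokkali and 6 for salt), the 3 largest each way where none was called, 2 loci of the study and function lists. The members, lists and rule were chosen with earlier results of these data known. Gene descriptions came from the study's lists of probes, selected on these arrays. The RefSeq locus table provided matched 0 loci. Slides and scan days were tried as random blocks. Further alternatives were 75th percentile scaling, normexp background correction (offset 50), a filter on dim probes, replicate blocks, and fits without single replicates, genotypes or the 8 arrays.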

Additional observations from a re-analysis of the deposited data

Results flagged for a closer look

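The salt effect of each of the other 7 genotypes was compared with that of Pokkali, a comparison added after the data were seen. With all 46 arrays, limma with its adjusted p called 0 interval probes in each of the 7 comparisons. Without the 8 arrays that resembled another genotype, 39 interval probes differed between the salt effect of Banikat and that of Pokkali (9.23% of all probes), 6 in Nipponbare (3.18% of all probes) and 4 in Oryza latifolia (0.991% of all probes). Of the 39 probes in Banikat, 21 were higher and 18 lower, and in each of them the salt differences of the 2 genotypes had opposite signs. The same held for the 6 in Nipponbare and for 3 of the 4 in Oryza latifolia. Banikat minus Pokkali was −5.52 for a probe of Os01g0314000, −5.50 for Os01g0314800, 5.46 and 4.34 for the serine carboxypeptidase-like Os01g0332800 and −4.62 for Os01g0316600. Nipponbare minus Pokkali was −8.03 for Os01g0303300, −4.51 for Os01g0316600 and −3.31 and −3.28 for both probes of the mitochondrial carrier Os01g0329400. Over all probes the salt differences of Banikat and Nipponbare correlated at −0.492 and −0.498 with that of Pokkali in this fit. Their treatment labels were kept, and whether these are right was not tested.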

How the results depend on the processing

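In order, the 6 counts of called interval probes (Pokkali against the others over both treatments, at 0 mM and at 120 mM, mean salt effect, salt effect in Pokkali, its difference from the others) were 26, 4, 3, 11, 0 and 0. Leaving out the 8 arrays moved the first 3 to 99, 39 and 50, leaving out Oryza latifolia too gave 65, 32, 37 and, for salt, 6, and leaving out Banikat and Nipponbare with the 8 gave 102, 46, 68 and 87. All these fits, and the one without Banikat and Nipponbare alone (7 at 0 mM, 8 at 120 mM, 62 for salt), were chosen after seeing the data. Without Oryza latifolia the counts at 0 mM and 120 mM were 7 each and that for salt 2, and without both wild species the salt count was 0. Normexp background correction gave 1 at 0 mM and 17 for salt, 75th percentile scaling 6 at 120 mM, the 3 indica varieties alone 5 at 120 mM, and the brightest probe per locus 2 at 0 mM. Leaving out a replicate number, in all genotypes or in Pokkali, gave 3 to 24, 0 to 7, 0 to 5, 0 to 10, 0 to 1 and 0 calls. Counts were otherwise within 1.5 times. The share of all probes called also moves between fits, for the first count from 6.05% with all arrays to 25.2% without the 8. Counts without that share therefore describe the fits and not a trait of the interval. Percentile scaling moved the median salt difference of all probes to 0.11. Of 735 refits of single named loci, 588 stayed on the same side of the threshold, 147 lost the call and 0 reversed. The 588 include all refits of loci named for the salt effect in Pokkali or its difference from the others. Those loci had no call to lose. Among called loci, the refits that kept the call ranged from 9 of 20 for Os01g0299100 to 21 of 21 for Os01g0353400. The labels do not say that a replicate number marks a shared batch. With the replicate block the counts were 29, 4, 4, 16, 0 and 0, and same-numbered arrays of the treatments had correlations of their deviations from −0.0327 to 0.462, above 0.1 in 8 of 22 pairs, so the numbers were not used as pairs in the reported values, although most same-numbered arrays of a genotype shared a slide. For dim probes the background limits the differences that can be seen.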
